A study of Mus musculus with 26 samples.

Results

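Respiratory complex I transcripts were followed in the proximal small intestine (SI) of mice with an induced gene deletion in intestinal epithelial cells (IECs). The genes were taken by symbol, as names that begin with Ndufa, Ndufb, Ndufc, Ndufs or Ndufv and lack the ending -ps, together with names that begin with mt-Nd. This rule found 56 of the 55487 genes in the count table. Of these, 7 are encoded by mitochondrial DNA (mtDNA) and 49 by nuclear DNA. The nuclear genes comprised 7 core subunits, 12 membrane-arm accessory subunits, 17 other accessory subunits, 8 assembly factors and 5 genes set apart. The genes set apart are Ndufa4, its paralogue Ndufa4l2 and the copies Ndufs6b, Ndufb4c and Ndufa11b. Membrane-arm here means an Ndufb or Ndufc symbol, so the other accessory subunits can include membrane-arm subunits with other symbols.

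The 26 libraries came from 26 mice, each from a piece of proximal SI, and counted reads near the 3′ ends of polyadenylated RNA. Knockout mice were homozygous for a floxed gene and carried the Villin-creERT2 transgene, in which the villin promoter drives a Cre recombinase that tamoxifen activates, so that recombination is directed to the epithelium. Their control littermates had the same floxed alleles and no transgene. The mice were 8 to 12 weeks old, of C57BL/6N background and fed chow, and both genotypes received tamoxifen on 5 consecutive days. Tissue was taken 3 days after the last injection (7 mice per genotype) or 7 days after it (6 mice per genotype). The controls thus shared the floxed alleles and the tamoxifen, and none of the 4 groups carried Cre without floxed alleles. The pieces hold all cell types of the gut wall, so fewer cells of a type and less RNA per cell cannot be told apart.

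Complex I is the entry point of the respiratory chain for electrons from NADH. Its peripheral arm, which holds the flavin and the iron–sulphur clusters, is built from nuclear-encoded subunits, whereas the core of its proton-pumping membrane arm is made by mitochondrial ribosomes from the mt-Nd transcripts. Around the conserved core subunits lies a shell of nuclear-encoded accessory subunits, and assembly factors that are absent from the finished enzyme join its modules.

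Of the 7 mtDNA-encoded genes, 5 could be measured. Over all 26 libraries mt-Nd3 had 10 counts and mt-Nd4l had 1, so that neither is read as a level here. Both have near-identical copies in nuclear DNA, of which stretches are shown, and the counting kept only reads with a high mapping quality. Whether the copies had a part in the low counts was not tested. The copy of mt-Nd3 (chrM:9459-9806, plus strand), the pseudogene Gm28438 (chr1:24612775-24613119, minus strand), differed from it at 1 of 345 bases compared. The first 60 bases of each are given 5′ to 3′ with the differing base in capitals.
mt-Nd3: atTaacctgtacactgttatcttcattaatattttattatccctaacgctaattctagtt
Gm28438: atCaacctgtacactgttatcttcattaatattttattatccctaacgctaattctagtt
The copy of mt-Nd4l (chrM:9877-10173, plus strand), Gm10222 (chr1:24612407-24612700, minus strand), was identical over the 294 bases compared. The last 60 compared bases of each are shown.
mt-Nd4l: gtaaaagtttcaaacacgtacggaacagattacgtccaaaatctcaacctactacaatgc
Gm10222: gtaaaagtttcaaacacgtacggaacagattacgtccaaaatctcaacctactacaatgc
By contrast, none of the 35-base words of mt-Nd1 (chrM:2751-3707, plus strand) occurred in another annotated transcript. Its last 60 bases illustrate an end that reads can be assigned to.
mt-Nd1: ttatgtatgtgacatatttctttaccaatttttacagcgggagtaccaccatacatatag
Within the last 300 bases of each transcript, the share of 35-base words found in other transcripts was 98.9% for mt-Nd3, 98.9% for mt-Nd4l, 36.8% for mt-Nd2, 7.52% for mt-Nd5, 2.63% for mt-Nd6 and 0% for mt-Nd4. Outside complex I, mt-Co2, mt-Co3 and mt-Atp6 had shares of 98.9% to 100% with 21 to 43 counts in all libraries. For mt-Co1 the share was 100% with 536708 counts, and for mt-Atp8, which is 204 bases long, 5.29% with 2 counts. The mt-Nd6 gene (chrM:13552-14070) lies on the other strand from mt-Nd5 (chrM:11742-13565) and overlaps it by 14 bases. The counting did not use the strand, so reads from mt-Nd6 and reads antisense to it cannot be told apart.

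Levels are given in CPM (counts relative to the library total, scaled by the trimmed mean of M-values, TMM), as the lowest, median and highest mouse of a group. Adjusted p-values come from edgeR's quasi-likelihood test with Benjamini-Hochberg adjustment over all genes tested. A gene was called at an adjusted p under 0.05, and fold changes are knockout against control on the log2 scale unless stated otherwise.

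The libraries held 3720110 to 6337900 counts, of which 17.3% to 27.0% fell on mtDNA genes. All 8 epithelial markers were detected in every group. By a mean log2 CPM of stomach markers over 3, 3 libraries were taken as holding stomach transcripts. They were those of knockout mouse 1 and control mouse 5 at 3 days and of control mouse 2 at 7 days. Control mouse 7 at 3 days fell below that limit (2.75) although its stomach markers summed to 8809 CPM. Fits without the libraries with stomach transcripts kept this mouse. Pancreatic transcripts summed to between 21.7 and 26840.0 CPM. At 7 days the 8 epithelial markers included 1 that was higher and 4 that were lower, with summed levels of 2252 to 2586 CPM in knockout mice and 2780 to 3774 CPM in controls. Of 7 immune markers tested 4 were lower (273 to 634 CPM against 652 to 1454 CPM). The 8 smooth muscle markers summed to 737 to 1054 CPM and 640 to 1167 CPM, without a call.

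The first comparison asked whether transcripts of mtDNA-encoded subunits differ between the genotypes. At 7 days mt-Nd1 and mt-Nd5 were higher in knockout mice, and no call was made for mt-Nd2, mt-Nd4 and mt-Nd6. The protein of mt-Nd1 joins the membrane arm to the peripheral arm. mt-Nd1 stood at 6881, 10458 and 13212 CPM in controls and at 21555, 24795 and 29626 CPM in knockout mice. The groups were far apart, with a log2 fold change of 1.23 (SE 0.12, adjusted p = 2.13e-07). mt-Nd5 encodes the most distal proton-pumping subunit and stood at 2163, 2809 and 3369 CPM in controls and at 4136, 4946 and 5429 CPM in knockout mice. Every knockout mouse was above every control here too, with a log2 fold change of 0.76 (SE 0.11, adjusted p = 1.20e-05). Of the 5 genes tested 2 were thus called, both without overlap between the groups. Over all 20259 genes tested at 7 days 38.5% were called, 19.7% as higher and 18.8% as lower, and 11.8% were higher without overlap.

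The pumping subunits mt-Nd2 and mt-Nd4 showed no such separation. mt-Nd2 stood at 32262, 34599 and 42198 CPM in controls and at 24830.4, 30959.6 and 37787 CPM in knockout mice. Of the 6 knockout mice 4 lay below all controls, and the estimate was -0.21 (SE 0.10, adjusted p = 0.112). mt-Nd2 passed the threshold as lower with library totals in place of TMM (adjusted p = 0.0448) and without knockout mouse 6 (0.0275), control mouse 2 (0.0449) or control mouse 4 (0.0439). mt-Nd4 stood at 16875, 29683 and 35188 CPM in controls and at 31152, 33093 and 38378 CPM in knockout mice, with 2 knockout mice above all controls and an estimate of 0.24 (SE 0.13, adjusted p = 0.151). mt-Nd6, a small hydrophobic subunit, stood at 2440.5, 4546 and 5415 CPM in controls and at 3454, 5370.0 and 5798 CPM in knockout mice. Its groups overlapped widely, with an estimate of 0.19 (SE 0.17, adjusted p = 0.421).

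At 3 days 0 of the 5 mtDNA-encoded genes were called, where 1.43% of all 20760 genes tested were called, and 2 had an unadjusted p under 0.05. mt-Nd1 stood at 7705, 9313 and 11423 CPM in controls and at 8319.8, 14243 and 19441 CPM in knockout mice (0.65, SE 0.18, adjusted p = 0.0964). mt-Nd5 stood at 1956, 2188 and 2388 CPM in controls and at 2374, 3047 and 3728 CPM in knockout mice (0.43, SE 0.13, adjusted p = 0.129). For both genes 6 of 7 knockout mice lay above all controls. DESeq2's Wald test called both higher, with adjusted p of 0.00855 for mt-Nd1 and 0.00914 for mt-Nd5. Without knockout mouse 1, a library with stomach transcripts and the lowest summed epithelial markers of all 26 (1028 CPM), edgeR gave 0.00772 for mt-Nd1 and 0.0411 for mt-Nd5. The 3-day estimates were 0.05 for mt-Nd2, 0.03 for mt-Nd4 and 0.20 for mt-Nd6, none of them called.

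**Figure D1:**
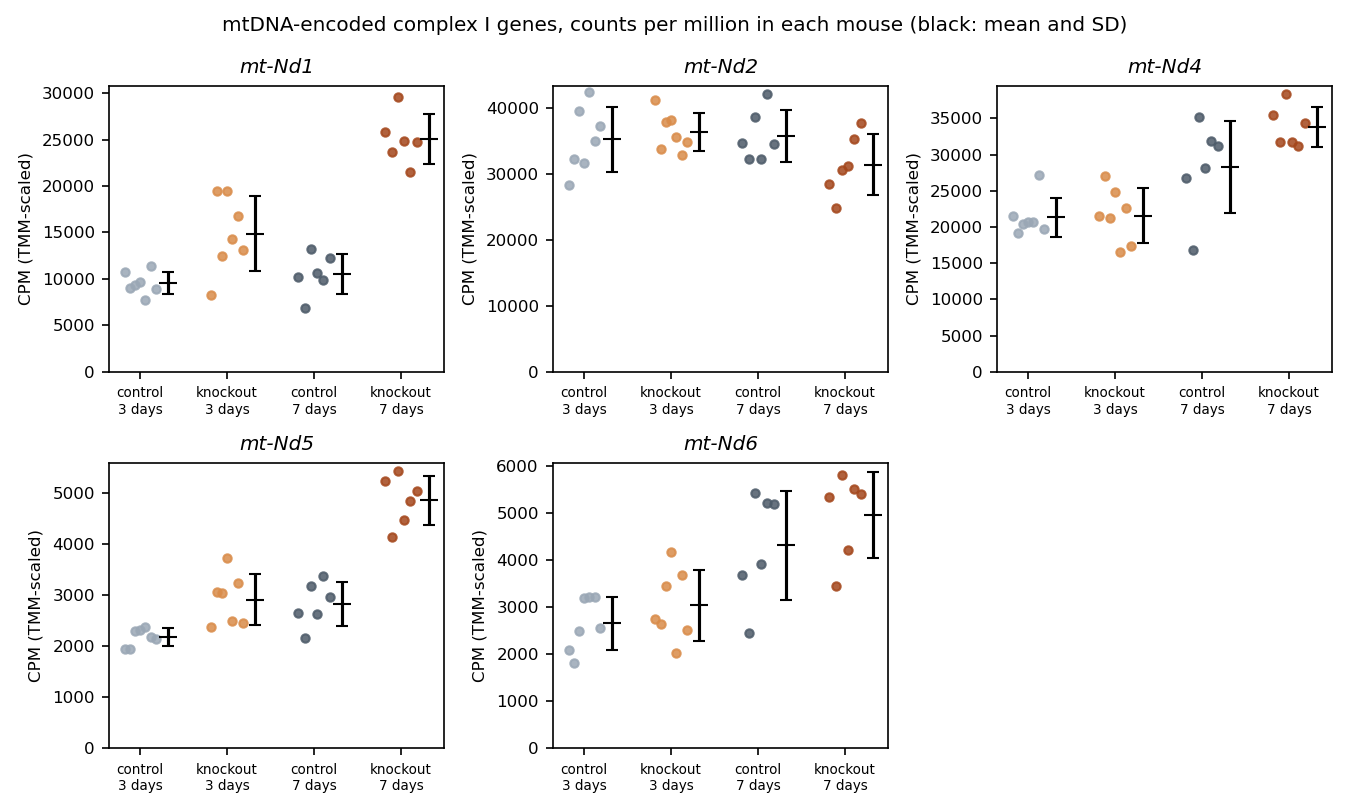
TMM-scaled CPM of the 5 measurable mtDNA-encoded complex I genes in each mouse (points), with the mean and SD of each group in black, on linear axes from 0. At 7 days the 6 knockout mice lie above the 6 controls for mt-Nd1 and mt-Nd5, while the groups overlap for mt-Nd2, mt-Nd4 and mt-Nd6.

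The same counts can also be read inside each library, where the scaling between libraries cancels. The ratio of mt-Nd1 to mt-Nd2 counts, a pair chosen after its values were seen and therefore given without a test, was 0.213, 0.313 and 0.356 in 7-day controls and 0.611, 0.849 and 0.966 in 7-day knockout mice. At 3 days the ratio was 0.181, 0.2801 and 0.379 in controls and 0.201, 0.3995 and 0.574 in knockout mice. The groups were apart at 7 days and overlapped at 3 days. The ratio of mt-Nd5 to mt-Nd2, also given without a test, was 0.0669, 0.0808 and 0.0859 in 7-day controls. In 7-day knockout mice it was 0.134, 0.155 and 0.183, again apart. At 3 days this ratio was 0.0562, 0.0604 and 0.0730 in controls and 0.0575, 0.0803 and 0.0985 in knockout mice. These 3-day groups overlapped. Both ratios reuse the counts above and add no separate support.

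The listed set of 9 other mtDNA genes was equally mixed. Of the 5 tested on each day, 2 were higher on both days, namely mt-Co1, a core subunit of complex IV, and mt-Cytb, the mtDNA-encoded subunit of complex III. mt-Co1 stood at 1923, 2309 and 2699 CPM in 7-day controls and at 7825, 8734 and 11490.5 CPM in 7-day knockout mice. Its groups were without overlap on both days, with log2 fold changes of 0.999 (SE 0.17, adjusted p = 0.00443) at 3 days and 1.93 (SE 0.11, adjusted p = 1.56e-10) at 7 days. All words of the last 300 bases of mt-Co1 also occur in copies, so reads from that end could not be assigned to it alone. mt-Cytb had log2 fold changes of 0.73 (SE 0.16, adjusted p = 0.0336) at 3 days and 1.25 (SE 0.10, adjusted p = 1.71e-08) at 7 days. The 3-day call of mt-Cytb was lost in 11 of 14 fits that each left out 1 mouse, all but those without knockout mouse 1 or 5 or control mouse 5. It was also lost with library totals in place of TMM (adjusted p = 0.0564) and without a filter on low counts (0.0624). The same held with replicate number as a block (0.226) and with pancreatic and stomach scores as covariates (0.0964). The ribosomal RNAs were not called at 7 days, with estimates of -0.10 for mt-Rnr1 and 0.09 for mt-Rnr2. Over the 5 genes tested the median was 0.52 at 3 days, with a lowest value of -0.67, and 1.15 at 7 days. The 7-day median belongs to a tested gene other than those named above, which was not called. The remaining protein genes mt-Co2, mt-Co3, mt-Atp6 and mt-Atp8 had at most 43 counts in all libraries together.

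**Figure D2:**
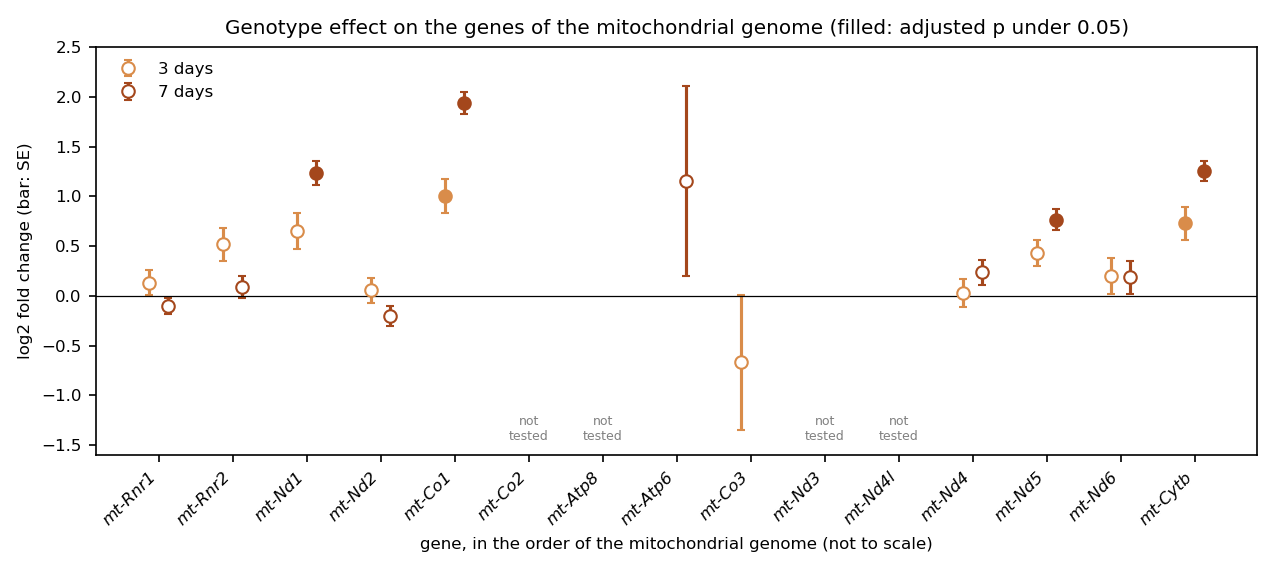
Log2 fold change (knockout against control) with its SE for the rRNA and protein genes of mtDNA, in genome order, at 3 and 7 days, filled where the adjusted p was under 0.05. At 7 days mt-Nd1, mt-Co1, mt-Nd5 and mt-Cytb are filled, and mt-Nd2, mt-Nd4 and mt-Nd6, each next to a filled gene among the measured ones, are not.

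The next comparison asked whether nuclear complex I transcripts differ between the genotypes. At 3 days 1 of 47 nuclear genes tested, Ndufaf6, was higher by edgeR, where 1.11% of all genes were higher. The median log2 fold change of the nuclear genes was 0.23, against -0.03 over all genes, whose lower and upper quartiles were -0.28 and 0.19. Of the 47 nuclear estimates 42 were above 0, but they come from the same mice and are not separate observations. No nuclear gene was without overlap between the groups at 3 days, where 0.67% of all genes were higher and 0.279% lower without overlap. With library totals in place of TMM these medians were 0.10 and -0.14, and with pancreatic and stomach scores as covariates they were 0.0766 and -0.02. At 7 days 18 of 46 nuclear genes tested were higher and 4 were lower, beside the 19.7% and 18.8% of all genes. The nuclear median was 0.25, against -0.02 over all genes, and 0.15 against -0.01 with pancreatic and stomach scores as covariates. The groups did not overlap for 4 nuclear genes that were higher (Ndufaf6, Ndufaf4, Ndufa10 and Ndufa4l2) and for 2 that were lower (Ndufab1 and Ndufs6), beside 11.8% and 10.5% of all genes. The count of 18 was 11 without control mouse 1 or without control mouse 4. A single fit over all 26 libraries also gave 11, and with pancreatic and stomach scores as covariates 8 nuclear genes were lower in place of 4. The lower epithelial and immune markers of 7-day knockout mice stand beside these counts, and their part in them was not tested.

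**Figure D3:**
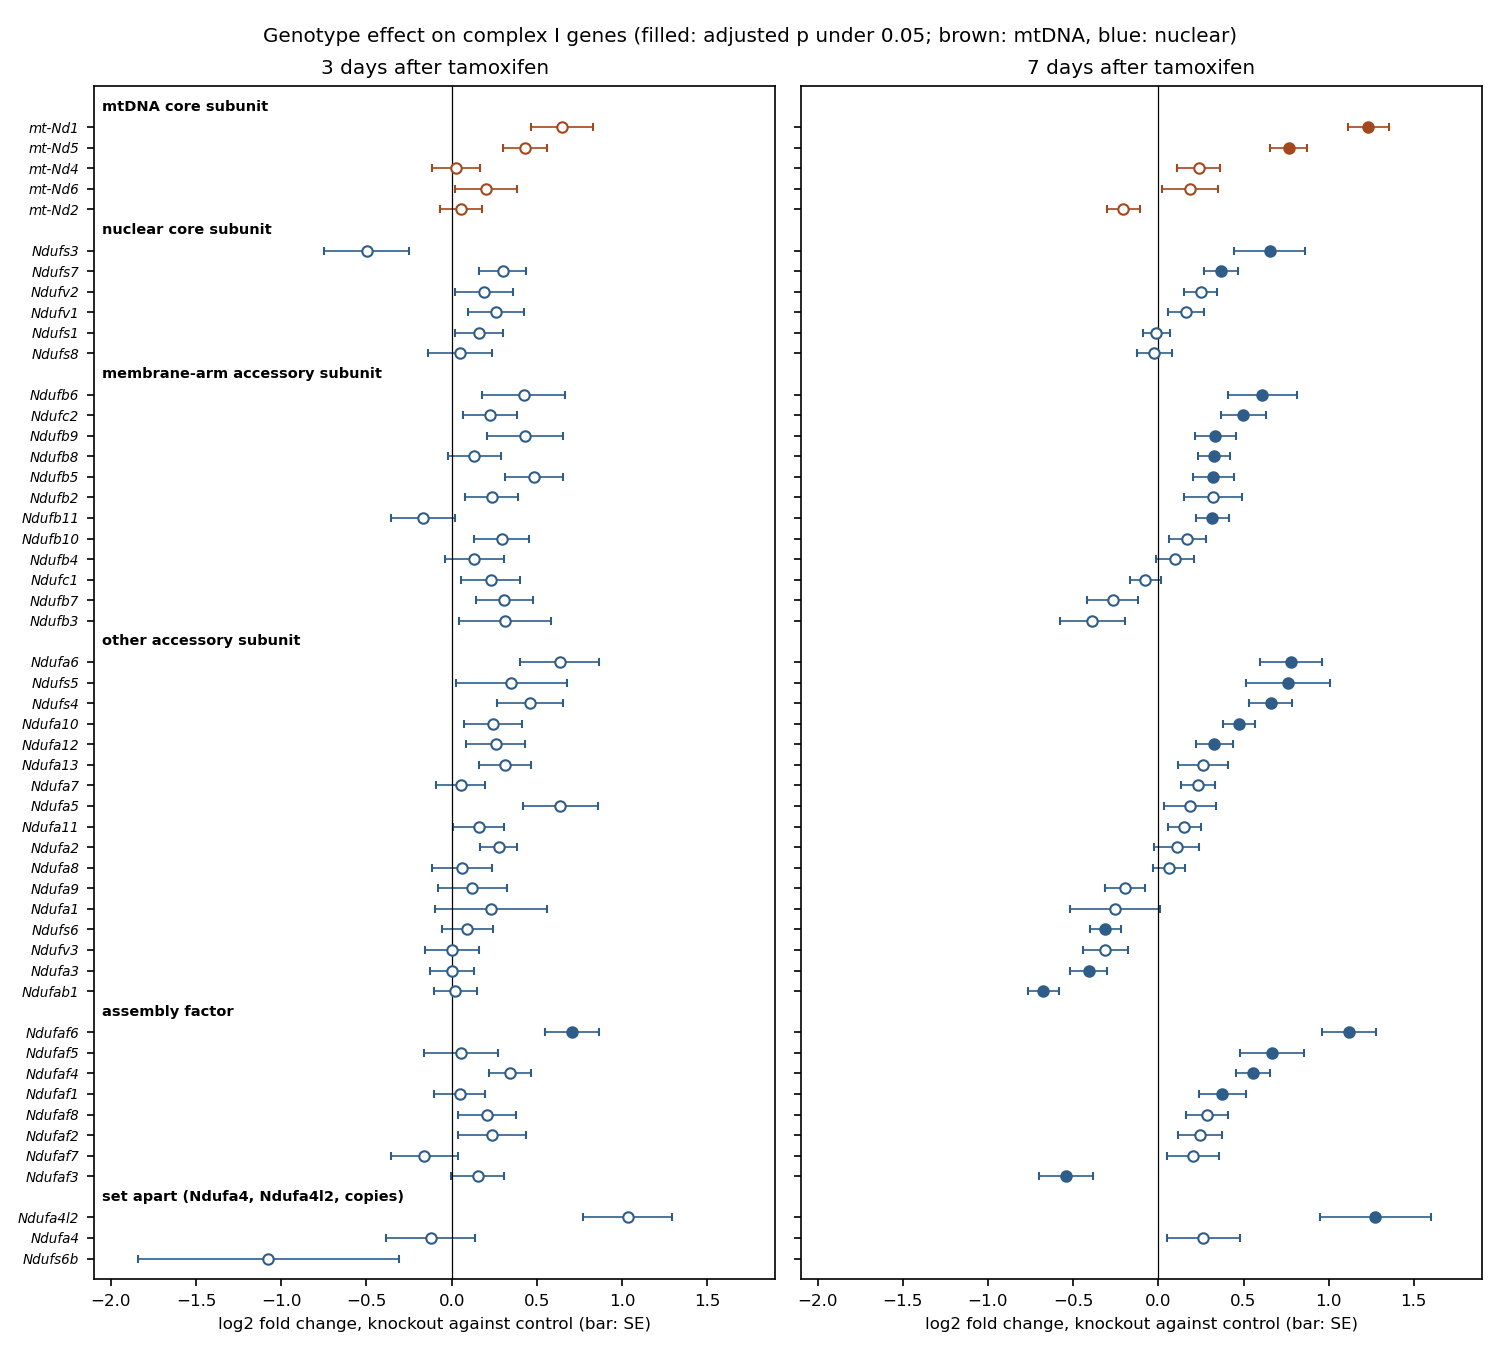
Log2 fold change (knockout against control) with its SE for complex I genes that could be tested, grouped by role, at 3 days (left) and 7 days (right), filled where the adjusted p was under 0.05. At 3 days Ndufaf6 alone is filled, and at 7 days 20 filled points are above 0 and 4 below, from -0.68 for Ndufab1 to 1.27 for Ndufa4l2.

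Among the 7 nuclear core subunits, which carry the electron path of the peripheral arm, 2 (28.6%) were higher at 7 days and 0 were lower, beside 19.7% and 18.8% of all genes. Ndufs7, which holds the last iron–sulphur cluster before ubiquinone, stood at 88.4, 110.5 and 127 CPM in controls and at 119.9, 141 and 166 CPM in knockout mice. Of the 6 knockout mice 5 lay above all controls (0.37, SE 0.10, adjusted p = 0.00697). Ndufs3, a core subunit of the quinone module, stood at 3.09, 5.36 and 6.73 CPM in controls and at 5.74, 8.78 and 10.4 CPM in knockout mice (0.65, SE 0.21, adjusted p = 0.0185). The Ndufs3 value is uncertain. Of the words in its last 300 bases 62.8% also occur in other transcripts. Over its whole transcript the pseudogene Gm12251 shares the most words, and it drew 1143 counts against 797 for Ndufs3. Exons of Ndufs3 overlap those of Kbtbd4 on the opposite strand by 85 bases. The call was lost without knockout mouse 2 (adjusted p = 0.0606), control mouse 1 (0.0521) or control mouse 5 (0.0565).

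The other 5 core subunits were not called at 7 days. Ndufv2 had an estimate of 0.25 (SE 0.10, adjusted p = 0.0519) and was called by DESeq2's Wald test (adjusted p = 0.0387), and 5 of its 6 knockout mice lay above all controls. Ndufv1, which binds NADH and the flavin, had 0.16 (SE 0.11). Ndufs1, the largest iron–sulphur subunit, had -0.01 (SE 0.08). Ndufs8, which holds iron–sulphur clusters next to the membrane, had -0.02 (SE 0.10). The groups overlapped for these genes. At 3 days the 7 estimates ran from -0.50 for Ndufs3 to 0.30 for Ndufs7, and none was called.

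The 12 accessory subunits with Ndufb and Ndufc symbols had 6 higher (50%) and 0 lower at 7 days, beside the same shares of all genes. This grouping by symbol does not cover every membrane-arm subunit. Ndufc2 stood at 99.8, 128 and 183 CPM in controls and at 158, 196 and 225 CPM in knockout mice, with 3 of 6 knockout mice above all controls (0.50, SE 0.13, adjusted p = 0.00619). Ndufb6 stood at 68.6, 86.8 and 158 CPM in controls and at 109, 145 and 227 CPM in knockout mice, where 2 knockout mice exceeded all controls (0.61, SE 0.20, adjusted p = 0.0231). Ndufb6 shares 83.8% of the words in its last 300 bases with the overlapping gene Smim27. Its call was lost without knockout mouse 2 or 3 or control mouse 1, 4 or 5 (adjusted p from 0.0575 to 0.0762), in the fit over all 26 libraries (0.0647) and with pancreatic and stomach scores as covariates, where the estimate was 0.40 (0.0607). The other called genes of this group, Ndufb5, Ndufb8, Ndufb9 and Ndufb11, had log2 fold changes of 0.32 to 0.33, and exons of all 4 overlap those of other genes, by 117 to 530 bases. The 6 that were not called ran from -0.39 for Ndufb3 to 0.32 for Ndufb2.

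Of the 17 other accessory subunits 5 (29.4%) were higher and 3 (17.6%) lower at 7 days, beside 19.7% and 18.8% of all genes. Ndufa6, which docks the mitochondrial acyl carrier protein, stood at 243, 354 and 535 CPM in controls and at 425, 677 and 759 CPM in knockout mice. Of the 6 knockout mice 5 lay above all controls (0.78, SE 0.18, adjusted p = 0.00197). Ndufs4, a peripheral-arm subunit whose loss in mice is a model of Leigh syndrome, stood at 103, 127 and 161 CPM in controls and at 157, 213 and 232 CPM in knockout mice. Again 5 of 6 knockout mice exceeded all controls (0.66, SE 0.12, adjusted p = 0.00032). Ndufs5 rose on low counts, 21 to 74 per 7-day library (0.76, SE 0.25, adjusted p = 0.0213). Of its last 300 bases 57.1% of the words also occur in the pseudogene BC002163, which drew 4247 counts against 939 for Ndufs5. The Ndufs5 call was lost without knockout mouse 3 or 6 or control mouse 1 or 4 (adjusted p from 0.0511 to 0.0646), in the fit over all 26 libraries (0.0506) and with pancreatic and stomach scores as covariates (0.0642). Ndufa10 and Ndufa12 were the other genes that rose (0.47 and 0.33).

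Ndufab1, the mitochondrial acyl carrier protein itself, moved the other way. It stood at 44.2, 49.9 and 54.9 CPM in 7-day controls and at 28.3, 32.1 and 35.96 CPM in 7-day knockout mice. Every knockout mouse was below every control, and the gene fell by 0.68 on the log2 scale (SE 0.09, adjusted p = 8.27e-06). Its exons overlap those of an antisense gene, Gm44986, by 269 bases. At 3 days Ndufab1 stood at 30.6, 40.95 and 44.5 CPM in controls and at 29.7, 38.3 and 47.8 CPM in knockout mice, with an estimate of 0.02 (SE 0.13). Ndufs6, which carries a zinc ion, stood at 203, 215 and 249 CPM in 7-day controls and at 151, 182 and 196 CPM in knockout mice, without overlap (-0.31, SE 0.09, adjusted p = 0.0116). Its exons overlap those of Mrpl36 on the opposite strand by 30 bases. The Ndufs6 call was lost in the fit over all 26 libraries (adjusted p = 0.0864). Ndufa3, a small membrane-bound subunit, stood at 259, 324 and 389.7 CPM in controls and at 211, 263 and 272 CPM in knockout mice. It was called lower (-0.41, SE 0.11, adjusted p = 0.00621), with 2 of 6 knockout mice below all controls.

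Of the 8 assembly factors with Ndufaf symbols, 4 (50%) were higher and 1 (12.5%) was lower at 7 days, beside 19.7% and 18.8% of all genes. Ndufaf6, which acts early in assembly, was the one nuclear gene called on both days. At 3 days it stood at 4.19, 6.38 and 8.35 CPM in controls and at 7.903, 10.5 and 11.5 CPM in knockout mice, with 6 of 7 knockout mice above all controls (0.71, SE 0.16, adjusted p = 0.0358). This 3-day call was lost in 11 of 14 fits that each left out 1 mouse, all but those without knockout mouse 1 or 6 or control mouse 1, and over all alternatives its adjusted p ran from 0.00332 to 0.194. At 7 days Ndufaf6 stood at 4.72, 5.78 and 7.75 CPM in controls and at 11.03, 12.8 and 16.8 CPM in knockout mice. The groups were apart (1.12, SE 0.16, adjusted p = 1.44e-05) on 21 to 82 counts per library.

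The partners Ndufaf3 and Ndufaf4, which together build the quinone-binding module, moved in opposite directions at 7 days. Ndufaf4 stood at 65.7, 78.2 and 83.99 CPM in controls and at 101, 113 and 139 CPM in knockout mice, without overlap (0.56, SE 0.10, adjusted p = 0.000161). Ndufaf3 stood at 15.6, 16.9 and 24.3 CPM in controls and at 9.86, 12.2 and 18.9 CPM in knockout mice. Of the 6 knockout mice 5 were below all controls (-0.54, SE 0.16, adjusted p = 0.011). Ndufaf5, which hydroxylates an arginine of NDUFS7, rose on 23 to 79 counts per library (0.67, SE 0.19, adjusted p = 0.00838). Ndufaf1, of the complex that assembles the membrane arm, was higher (0.38, SE 0.14, adjusted p = 0.0411), a call that was lost without knockout mouse 2, 3, 5 or 6 or control mouse 1, 2, 4 or 6 (adjusted p from 0.0588 to 0.144). It was also lost with DESeq2's Wald test (adjusted p = 0.0552), and in edgeR with DESeq2's size factors (0.0525), without a filter (0.0647), with pancreatic and stomach scores as covariates (0.161) and without the libraries with stomach transcripts (0.0828). Exons of Ndufaf3 overlap those of Impdh2 on the opposite strand by 48 bases. No call was made for Ndufaf8, Ndufaf2 and Ndufaf7, with estimates of 0.29, 0.24 and 0.20.

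**Figure D4:**
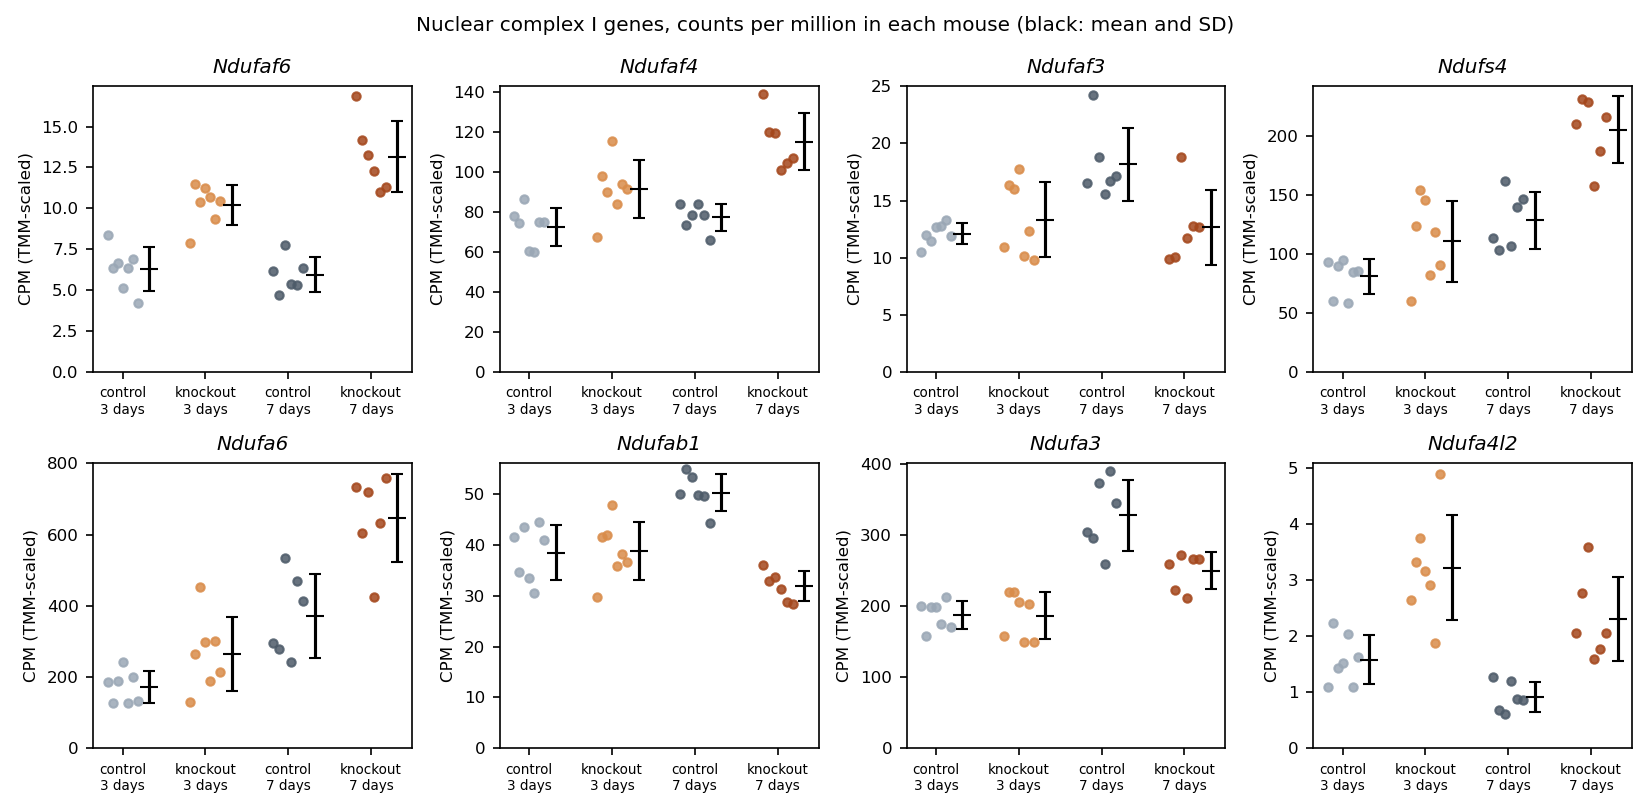
TMM-scaled CPM of 8 nuclear complex I genes in each mouse (points), with the mean and SD of each group in black, on linear axes from 0. At 7 days the knockout mice are all above the controls for Ndufaf6, Ndufaf4 and Ndufa4l2 and all below them for Ndufab1.

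The promoter of Ndufaf4 is shown because it holds the motif of nuclear respiratory factor 1 (NRF1), a regulator of many respiratory chain genes. The 10 letters searched are those in capitals (RefSeq, GRCm38.p6, chr4:24897833-24898082, plus strand, the 250 bases before the gene's start).
Ndufaf4: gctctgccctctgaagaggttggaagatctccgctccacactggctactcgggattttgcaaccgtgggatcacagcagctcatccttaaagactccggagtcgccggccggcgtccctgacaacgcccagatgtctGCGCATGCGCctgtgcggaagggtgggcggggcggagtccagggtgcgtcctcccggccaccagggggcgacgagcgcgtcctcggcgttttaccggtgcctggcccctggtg
RefSeq windows from 250 bases before to 50 bases after the start were matched for 40 of the 49 nuclear genes. This motif, which reads the same on both strands, was found in 3 of these 40 genes (Ndufaf4, Ndufaf5 and Ndufa11), or 7.5%. It was found in 1.07% of all 27025 genes with a window. Of these 3 genes Ndufaf4 and Ndufaf5 were higher at 7 days, and Ndufa11 was not called (0.15, adjusted p = 0.233). The letters TCAAGGTCA, an estrogen-related receptor motif, were found in 0 of the 40 genes and in 0.47% of all. The letters TGATGNAAN, after the CARE element read by ATF4, were found in 0 of the 40 and in 4.5% of all, with both strands searched for each.

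A listed set of 12 other complex I assembly genes had 3 higher (25%) and 0 lower at 7 days, beside 19.7% and 18.8% of all genes. At 3 days edgeR called 0 of them, and 1 had an unadjusted p under 0.05. Tmem126a, which acts on the mt-Nd4 module, stood at 26.3, 33.9 and 39.01 CPM in controls and at 49.4, 54.1 and 60.9 CPM in knockout mice, without overlap (0.68, SE 0.10, adjusted p = 2.65e-05). Timmdc1, a membrane-arm assembly factor, stood at 21.2, 27.1 and 33.7 CPM in controls and at 36.8, 41.3 and 48.9 CPM in knockout mice, likewise without overlap (0.58, SE 0.12, adjusted p = 0.000507). Ecsit, which works in a complex with Ndufaf1, rose by 0.49 (SE 0.12, adjusted p = 0.00371), and the estimates for its partners Acad9 and Tmem126b were 0.34 and -0.25, not called. At 3 days Ecsit, the gene with that unadjusted p, had an estimate of 0.52 (adjusted p = 0.0867), and DESeq2's Wald test called it (adjusted p = 0.0156).

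Among the genes set apart, Ndufa4l2, a paralogue of Ndufa4 known to be induced by hypoxia, was higher at 7 days. It stood at 0.612, 0.8695 and 1.27 CPM in controls and at 1.59, 2.05 and 3.59 CPM in knockout mice, without overlap (1.27, SE 0.33, adjusted p = 0.00426). The counts were low, 3 to 16.5 per 7-day library, and its exons overlap those of Shmt2 on the opposite strand by 32 bases, so that reads from the overlap cannot be told apart. At 3 days it had an estimate of 1.03 (SE 0.26, adjusted p = 0.0606), with 6 of 7 knockout mice above all controls. DESeq2's Wald test called it at 3 days (adjusted p = 0.0218), as did edgeR with filterByExpr (0.0351). Over all alternatives its 3-day adjusted p ran from 0.0145 to 0.172. Ndufa4, now counted as a subunit of complex IV, was not called on either day (-0.12 and 0.26). Ndufs6b, a processed copy of Ndufs6, had 73 counts over the 6 control libraries of 7 days and 0 in each of the 6 knockout libraries. Its level was at least 25.3-fold lower in the latter with a floor of 3 counts over the group, a value outside the test because of the filter on zero counts. At 3 days it had 25 counts over the 7 control libraries and 11 over the 7 knockout libraries. Ndufs6b shares 48.1% of the words in its last 300 bases with Ndufs6. Ndufb4c had 0 counts and Ndufa11b 1 count in all libraries.

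Most nuclear complex I genes also differed between the controls of the 2 days. From 3 to 7 days, 40 of 47 nuclear genes tested were higher in control mice and 0 were lower, where 36% of all 20646 genes tested were called, 19.7% as higher and 16.3% as lower. The median log2 fold change was 0.65, against -0.06 over all genes. The groups did not overlap for 27 of the nuclear genes, all higher, beside 9.25% of all genes higher and 7.06% lower without overlap. All 12 membrane-arm accessory subunits, all 17 other accessory subunits and 6 of 7 core subunits were higher, and 3 of 8 assembly factors. Ndufb9, chosen after its values were seen, gave the smallest adjusted p (1.13, SE 0.14, adjusted p = 3.98e-05), with 111, 175 and 189 CPM at 3 days and 257, 323 and 401 CPM at 7 days. Of the mtDNA-encoded genes, mt-Nd4 (0.46), mt-Nd5 (0.43) and mt-Nd6 (0.75) were higher, and mt-Nd1 (0.19) and mt-Nd2 (0.08) were not called. With library totals in place of TMM, the median of all genes moved to -0.41, 19 nuclear genes were higher, 1 was lower and 0 mtDNA-encoded genes were called. Composition moved between the same groups: 6 of 8 epithelial markers were higher at 7 days (2780 to 3774 CPM in sum, against 1192 to 2297 CPM) and 8 of 8 smooth muscle markers were lower (640 to 1167 CPM against 1832 to 3304 CPM), and their part in this difference was not tested. Day and any other difference between the mice of the 2 days cannot be told apart.

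The genotype effect itself was compared between the days over all 26 libraries. Of 46 nuclear genes tested 1 was called with a higher effect at 7 than at 3 days and 2 with a lower one. Of 5 mtDNA-encoded genes 0 were called by edgeR or DESeq2, and 1 had an unadjusted p under 0.05. At an adjusted p under 0.05, 18.4% of all 19604 genes tested were called, 8.64% with a higher and 9.74% with a lower effect. Ndufab1 had an effect lower by 0.68 (SE 0.15, adjusted p = 0.00143), from 0.02 at 3 days to -0.68 at 7 days. Ndufaf3 had a difference of -0.67 (SE 0.22, adjusted p = 0.0344). This call was lost in 7 fits that each left out 1 mouse (adjusted p from 0.0538 to 0.0626). They were those without knockout mouse 2, 3 or 4 or control mouse 1 of 3 days, or without knockout mouse 1 or 2 or control mouse 2 of 7 days. The Ndufaf3 call was also lost without a filter on low counts (0.0583) and with replicate number as a block (0.0624). Ndufs3 had a difference of 1.17 (SE 0.32, adjusted p = 0.0108), from -0.50 to 0.65. mt-Nd1 had a difference of 0.61 (SE 0.23, adjusted p = 0.0676) and mt-Nd5 one of 0.35 (SE 0.17, adjusted p = 0.17). With library totals both were called, with adjusted p of 0.0173 for mt-Nd1 and 0.0428 for mt-Nd5.

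Nuclear and mtDNA-encoded genes were finally set against each other within each mouse. The mean log2 CPM over 5 mtDNA-encoded genes was 13.02 ± 0.13 (SD, n = 7) in 3-day controls, 13.27 ± 0.21 (n = 7) in 3-day knockout mice, 13.34 ± 0.29 (n = 6) in 7-day controls and 13.81 ± 0.15 (n = 6) in 7-day knockout mice. The mean over 46 nuclear genes was 5.86 ± 0.21, 6.04 ± 0.34, 6.45 ± 0.18 and 6.69 ± 0.16 in the same order. The mtDNA-encoded mean minus the nuclear mean, which carries no meaning as a level because CPM is not per length, was 7.16 ± 0.21, 7.23 ± 0.19, 6.89 ± 0.16 and 7.13 ± 0.15 log2 units. Knockout minus control, the difference was 0.066 at 3 days and 0.24 at 7 days, the first below and the second above the SD within groups. It was larger with medians over genes in place of means, 0.44 and 1.06, where the median over 5 genes is the value of a single gene in each mouse. The share of all counts on mt-Nd genes was 5.86, 7.71 and 8.09 percent in 7-day controls and 8.04, 8.95 and 9.42 percent in 7-day knockout mice, overlapping at the edges.

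**Figure D5:**
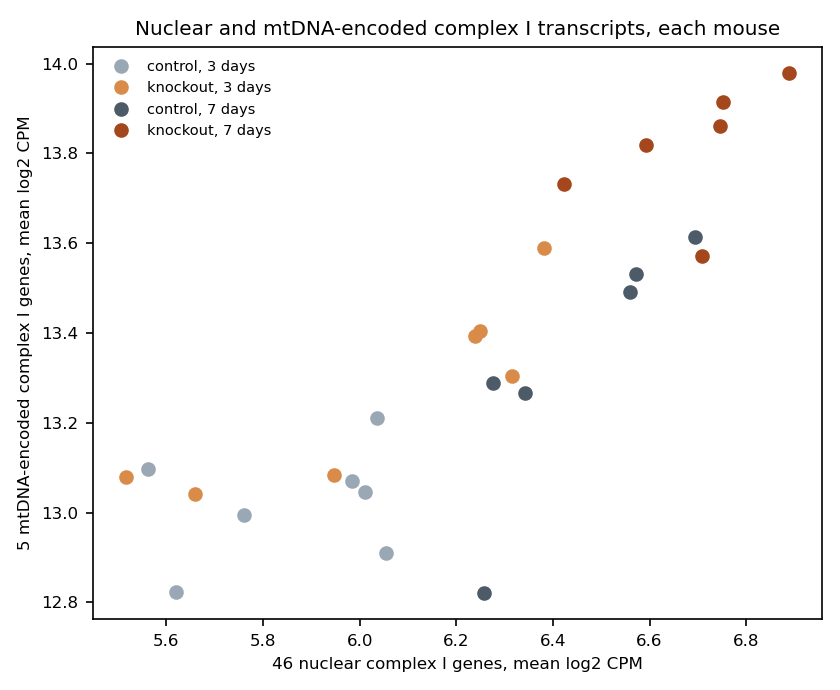
Mean log2 CPM (prior count 2) over 46 nuclear complex I genes (horizontal) against the mean over 5 mtDNA-encoded complex I genes (vertical), 1 point per mouse, coloured by genotype and day. At 7 days the knockout mice lie between 13.57 and 13.98 on the vertical axis and the controls between 12.82 and 13.61. The ranges of the genotypes thus overlap at the edges on the vertical axis, and they overlap on the horizontal axis too.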

How the data were processed

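RNA from 26 pieces of proximal SI, 1 per mouse, was sequenced from its 3′ ends, and the authors deposited estimated counts per gene. They trimmed reads with cutadapt 2.10 (minimum length 35), aligned them with Subread to GRCm38 and counted exons of Ensembl genes with featureCounts 2.0.1 at a mapping quality of at least 30, a minimum overlap of 20 bases and without strand, dividing reads on several genes into fractions, which touches genes with copies or overlaps. A deposited CPM table was not used. Of the values 95.0% were whole, the rest were rounded, and 92 spike-in rows held 0 counts. Groups came from the sample titles.

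Genes with 0 counts in the majority of the mice of either group were left out, as the study's methods did. Each day was fitted alone by edgeR 4.0.16 (R 4.3.3) with TMM scaling and the quasi-likelihood test, and the difference between days over all 26 libraries. The SE is the log2 fold change over the square root of F. DESeq2 1.42.0 was an alternative, beside other scalings, filters, covariates, a replicate block and fits without each mouse. The code was tested on simulated data.

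The members, lists and tests were chosen with earlier results of these data known. Named genes were the mtDNA-encoded genes, core subunits and assembly factors, Ndufa4 and Ndufa4l2, members called at 3 days, up to 5 accessory subunits in each direction with the largest called changes at 7 days, and called genes of the other lists. The deleted gene and 1 core subunit are not reported here, though counts over the genes include the latter. Others, such as Ndufs6b, Ndufa10 and Ndufa11, were named after their values were seen. Of the listed other assembly genes 12 of 13 were matched. Shared words and printed transcripts came from GENCODE M21 transcripts, and promoters from RefSeq.

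No label states that replicate numbers pair the mice. Correlations of same-numbered deviations ran from -0.36 to 0.43, and they cannot decide this because differently numbered mice were not compared. The mice are separate animals, and CPM carries counting error that is large for the genes with few counts.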

Additional observations from a re-analysis of the deposited data

Results flagged for a closer look

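Single mice stood apart from the rest of their group in 6 of 137 sets of values for the named genes, where chance at 1 in 20 gives 6.85. mt-Nd3 was at 0.975 CPM in knockout mouse 2 at 3 days, on a handful of counts. mt-Nd4 was at 27231 CPM in control mouse 6 at 3 days, with the next highest at 21511 CPM. Ndufaf5 was at 11.6 CPM in knockout mouse 4 at 3 days. Ndufaf3 was highest at 18.9 CPM in knockout mouse 3 at 7 days and at 24.3 CPM in control mouse 2 at 7 days, the latter a library with stomach transcripts. Ecsit was lowest at 33.1 CPM in knockout mouse 1 at 3 days, another library with stomach transcripts. Whether stomach tissue moved these values was not tested.

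The genotype effect differed between the days, by the test of that difference over all 26 libraries, for Ndufs3 (1.17 higher at 7 days on the log2 scale, adjusted p = 0.0108 by edgeR), Ndufaf3 (-0.67, adjusted p = 0.0344), Ndufab1 (-0.68, adjusted p = 0.00143) and, outside complex I, mt-Co1 (0.96 higher, adjusted p = 0.00151). Of these, Ndufs3 shares words with a pseudogene, and mt-Co1 shares the words of its 3′ end with nuclear copies.

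Among the 3 genes with a -ps ending that the naming rule left out, Ndufa12-ps was higher at 7 days with a log2 fold change of 0.39 (adjusted p = 0.00507 by edgeR), beside 0.33 for Ndufa12. Ndufa12-ps is annotated as a processed pseudogene. Of the 35-base words of Ndufa12 29% also occur in other transcripts, and 1.5% of those in its last 300 bases. Whether shared reads had a part in these values was not tested.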

How the results depend on the processing

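No called fold change of a gene named by the rule changed sign under the alternatives run for the genotype effects and their difference between days. At 3 days 1 nuclear gene was higher. This count was 0 with library totals, without a filter and with pancreatic and stomach covariates, and 2 with filterByExpr, DESeq2's Wald test, the fit over all 26 libraries, the smooth muscle covariate and without the libraries with stomach transcripts (chosen after seeing the data), the last 4 also giving 2 mtDNA-encoded genes in place of 0. Without single mice the counts ran from 0 to 4 and from 0 to 2, highest without knockout mouse 1. At 7 days 18 nuclear genes were higher (11 over all 26 libraries, 11 to 22 without single mice) and 4 lower (8 with pancreatic and stomach covariates, 4 to 6), and 1 mtDNA-encoded gene was lower in place of 0 with library totals and without stomach libraries (0 to 1). Between controls library totals gave 19 nuclear genes higher in place of 40 (38 to 40), 1 lower in place of 0, and 0 mtDNA-encoded genes higher in place of 3 (2 to 3). For the difference between days 2 mtDNA-encoded genes were higher with library totals and 1 with either covariate set or without stomach libraries, in place of 0 (0 to 1). There, 2 nuclear genes were higher with the smooth muscle covariate in place of 1, and 1 to 2 were lower without single mice. The mtDNA minus nuclear difference was 0.437 and 1.06 with medians, and 0.0102 to 0.128 at 3 days and 0.177 to 0.295 at 7 days without single mice.

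With the replicate block 0 nuclear genes were higher at 3 days and 1 nuclear gene had a lower effect at 7 than at 3 days in place of 2. No label states that same-numbered mice form pairs. Over all genes 297 were called at 3 days, 99 with the block, 786 with DESeq2's Wald test, 810 over all 26 libraries, 633 with the smooth muscle covariate and 774 without stomach libraries. Library totals moved the share of higher calls from 230 of 297 to 125 of 240 at 3 days and from 4077 of 7441 to 1977 of 9349 between controls. The causes were not tested. Low counts limit Ndufaf6, Ndufaf5, Ndufs3, Ndufs5 and Ndufa4l2.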

Other observations

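Of 29 members tested whose last 300 bases hold no words of other transcripts, 13 were higher and 2 were lower at 7 days, and of the 22 others 7 were higher and 2 were lower, beside 19.7% and 18.8% of all genes.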
